A study of Mus musculus with 39 samples.

Results

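The 8 genes described here, Vegfa, Ndrg1, Ankrd37, P4ha1, P4ha2, Kdm3a, Mxi1 and Higd1a, are well-known targets of the hypoxia-inducible factors (HIF) that do not belong to glycolysis. They were chosen by name, and their rows were read from the table of 11873 genes. All 8 were present and all 8 passed the filter on low counts, which left 9483 genes for testing. The data are RNA sequencing of livers of C57BL/6 mice aged 3 to 5 months, with 3 libraries in each of 12 groups. Every mouse carried Alb-Cre, in which the albumin promoter drives Cre recombinase in hepatocytes. Mice with Alb-Cre alone served as controls (Alb). Alb-Cre+ Hif1afl/fl mice were bred to lack the oxygen-regulated HIF subunit Hif1a in hepatocytes (HLKO), and Alb-Cre+ Bmal1fl/fl mice to lack the clock transcription factor Bmal1, listed as Arntl, in hepatocytes (BLKO). The deletion is aimed at hepatocytes, and whether other liver cells keep both genes was not tested here. The mice lived for 2 weeks in 12 h of light per day, were kept in the dark on the day of the experiment, and breathed 21% or 6% oxygen for 4 h from circadian time 4 (CT4, in the resting phase) or circadian time 16 (CT16, in the active phase). Food was freely available.

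In oxygenated cells, prolyl hydroxylases mark the HIF alpha subunits for degradation. When oxygen falls, the subunits accumulate, pair with ARNT and bind the hypoxia response element, whose core is the letters ACGTG or GCGTG. Bmal1 belongs to the same family of basic helix-loop-helix PAS proteins and, paired with CLOCK, binds the E-box CACGTG, which contains an ACGTG. The 8 genes cover several arms of the response. Ankrd37 encodes a small ankyrin repeat protein, Kdm3a a histone H3 lysine demethylase that itself uses oxygen, and Mxi1 an antagonist of MYC that competes for its partner MAX. Ndrg1 is a stress-induced cytoplasmic protein linked to differentiation and growth arrest. Vegfa is the growth factor that drives vessel growth. P4ha1 and P4ha2 are catalytic subunits of collagen prolyl hydroxylase, and Higd1a is a mitochondrial inner membrane protein associated with the respiratory chain.

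Library totals ran from 1717589 to 5196957 counts, with a median of 3051000. Levels are given as CPM, reads of a gene scaled to library size (edgeR's TMM), as mean ± SD with n = 3 libraries, and changes as log2 fold changes ± SE of 6% over 21% oxygen unless another contrast is named. Adjusted p-values are two-sided, come from edgeR's quasi-likelihood test over the 9483 genes and are adjusted by Benjamini and Hochberg within each comparison; a gene is said to have risen or fallen where this value was under 0.05. Within groups, 2 libraries stood apart most. Alb CT4 21% A differed from its group mates by a chi-square per degree of freedom of 24.3 and 22.5, where the mates differed by 5.87, and Alb CT16 6% A by 31.8 and 24.2, where its mates differed by 4.35. The Alb hypoxia calls of Ankrd37 and Ndrg1 were kept without them, and calls of members that changed without them are named beside their values. No threshold was set for standing apart, and the measure was not adjusted for library depth. Smaller gaps were seen elsewhere, as for Alb CT4 6% A (15.3 and 19.3, where its mates differed by 9.66) and BLKO CT16 21% A (14.2 and 10.9 against 6.64). The targeted gene Hif1a was low everywhere, with group means between 2.29 ± 2.39 CPM (HLKO, CT16, 6% oxygen) and 8.87 ± 5.39 CPM (Alb, same time and oxygen). That difference passed the test (-1.78 ± 0.51, adjusted p = 0.0248), but not when Alb CT16 6% A was left out (-1.09, adjusted p = 0.294), nor on dropping A or C of the HLKO group (0.122 and 0.108), and it was -2.85 without B of that group. The other 3 HLKO against Alb comparisons did not pass, with 5.23 ± 2.38 against 8.27 ± 2.42 CPM at CT4 21%, 5.5 ± 2.5 against 5.65 ± 1.39 CPM at CT16 21%, and the higher mean in HLKO at CT4 6%, 6.99 ± 2.58 against 3.43 ± 1.77 CPM. Gene-level counts also hold reads outside a deleted part, so this is a weak check of the HLKO label. Arntl itself was not called between BLKO and Alb in any of the 4 comparisons (6.43 ± 0.461 against 4.49 ± 1.87 CPM at CT4 21%, 11.9 ± 1.76 against 19.7 ± 2.3 CPM at CT16 21%), and it too is counted over the whole gene. Dbp and Nr1d1, clock genes driven by Bmal1, were lower in BLKO than in Alb at CT4 21%, at 11.1 ± 1.56 against 179 ± 24.3 CPM (adjusted p = 7.85e-08) and 13.1 ± 8.94 against 107 ± 33 CPM (adjusted p = 6.97e-08). In HLKO at CT4 21%, Arntl was lower than in Alb (1.44 ± 0.456 CPM, -1.60 ± 0.48, adjusted p = 0.0321) and Nr1d1 higher (0.83 ± 0.26, adjusted p = 0.0426). The hypoxia effect in HLKO, CT16 minus CT4, differed for Arntl (-2.66 ± 0.51, adjusted p = 0.000922) and Dbp (3.61 ± 0.58, adjusted p = 0.000133). The part of these clock genes in the HLKO time differences of members was not tested. The 9 hepatocyte markers in the table summed to between 71730 and 131305 CPM over all libraries. BLKO lay below Alb without overlap at each time and oxygen level, by least at CT4 21% (76517 to 82715 against 83773 to 99049 CPM) and by most at CT16 6% (71730 to 77975 against 94018 to 107138 CPM). HLKO lay above Alb without overlap at CT16 6% (119068 to 123265 CPM) and at CT4 21% (105498 to 119053 CPM), and overlapped it in the other 2 groups. In BLKO the albumin gene was lower than in Alb in all 4 comparisons, and the markers did not move as a set. At CT4, 7 of 9 were higher in BLKO by sign at 21% oxygen (median change 0.26) and 6 at 6% (0.10). At CT16, 3 were higher at 21% (-0.07) and 1 at 6% (-0.02). The part of the marker sums in the differences between genotypes was not tested. Nothing in the labels says that the 3 libraries of a group come from separate mice, and the p-values measure only the spread between these libraries, which may be technical. In whole liver, fewer cells of a type and less RNA per cell cannot be told apart.

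Promoter sequence of 7 of the 8 genes, all but Ndrg1, was at hand from RefSeq (GRCm38.p6), as 250 bases before each annotated start, in 12 windows. The letters ACGTG or GCGTG, searched on both strands, occurred in 8 of the 12 windows, and each of the 7 genes had at least 1 window with a match. Of all 32851 RefSeq windows of that length, 38.595% hold a match, 16.727% hold at least 2 and 6.581% hold at least 3. These shares are per window, and the share of genes with a match in any window was not computed. The E-box CACGTG occurred in 0 of the 12 windows, against 6.021% of all windows. The windows of 4 genes, picked after their responses were seen, are shown as examples. Mxi1, which also rose in 1 comparison, is not among them. Ankrd37 and Kdm3a are members that rose with hypoxia, and P4ha1 and P4ha2 have 3 matches each and rose in no setting. Capitals mark the matches, on either strand, and the last base lies next to the start of transcription.
Ankrd37: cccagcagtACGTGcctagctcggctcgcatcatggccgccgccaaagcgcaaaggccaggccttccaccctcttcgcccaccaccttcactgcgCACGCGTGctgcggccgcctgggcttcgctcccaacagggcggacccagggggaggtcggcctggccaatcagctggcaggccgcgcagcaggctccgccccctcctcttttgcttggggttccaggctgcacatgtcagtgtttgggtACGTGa
Kdm3a: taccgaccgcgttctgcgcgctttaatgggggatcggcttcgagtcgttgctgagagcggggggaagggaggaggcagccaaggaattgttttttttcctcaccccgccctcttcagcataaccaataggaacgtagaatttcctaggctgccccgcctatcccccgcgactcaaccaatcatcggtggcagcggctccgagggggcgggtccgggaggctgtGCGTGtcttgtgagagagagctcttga
P4ha1: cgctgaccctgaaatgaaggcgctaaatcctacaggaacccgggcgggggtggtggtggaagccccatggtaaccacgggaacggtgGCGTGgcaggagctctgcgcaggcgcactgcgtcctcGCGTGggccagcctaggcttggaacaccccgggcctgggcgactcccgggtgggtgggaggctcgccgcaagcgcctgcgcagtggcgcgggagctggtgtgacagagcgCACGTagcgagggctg
P4ha2: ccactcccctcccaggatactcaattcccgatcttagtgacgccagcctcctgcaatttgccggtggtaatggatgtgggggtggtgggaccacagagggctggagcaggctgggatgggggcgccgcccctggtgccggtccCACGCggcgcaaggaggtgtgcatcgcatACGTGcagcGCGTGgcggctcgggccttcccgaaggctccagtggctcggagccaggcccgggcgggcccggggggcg
The Ankrd37 window (chr8:45999851-46000100, minus strand) had 4 matches, beginning 241, 155, 152 and 6 bases before the start, and the matches at 155 and 152 overlap. The Kdm3a window (chr6:71632918-71633167, minus strand) had 1 match at 27 bases, and the other 2 Kdm3a starts had none. The P4ha1 window (chr10:59323046-59323295, plus strand) had matches at 163, 126 and 16 bases, and the P4ha2 window (chr11:54100674-54100923, plus strand) at 107, 78 and 69 bases. Higd1a had 2 matches, Vegfa 0 and 2 at its 2 starts, and Mxi1 0, 1 and 1 at its 3 starts. The Vegfa and Mxi1 windows with matches lie within the gene body, downstream of the first start of the gene. Genes with several matches thus included one that rose and one that fell. A match is a run of letters and not a measured binding site.

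**Figure D1:**
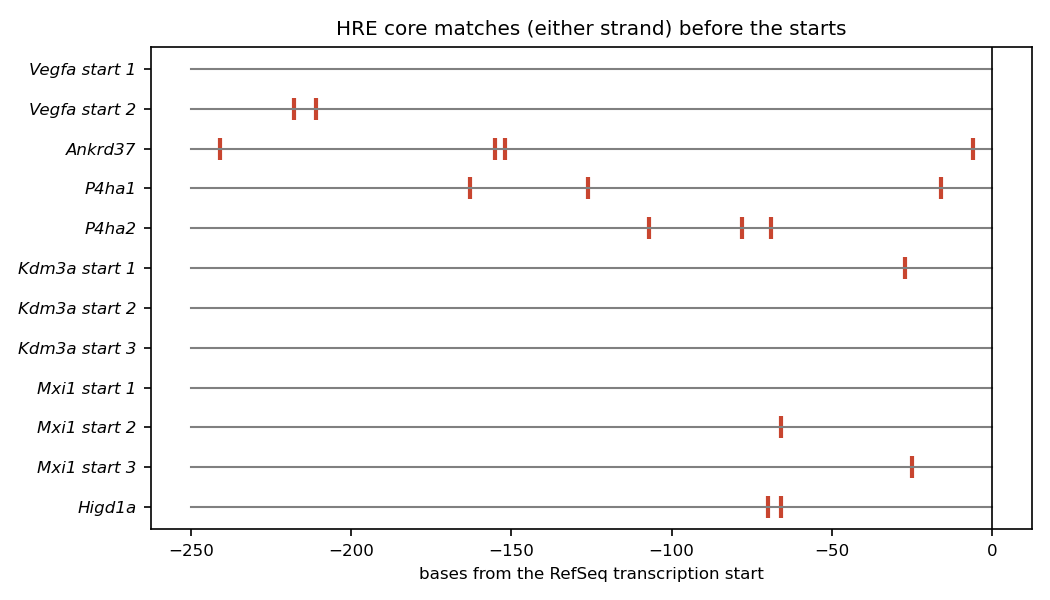
Position of each ACGTG or GCGTG match, on either strand, in the 250 bases before the RefSeq starts of 7 of the genes; each line is 1 window, each red tick 1 match, and the x axis is the distance from the start in bases. Ankrd37 had 4 matches, P4ha1 and P4ha2 3 each, and the first Kdm3a start 1 match at 27 bases.

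The response of the 8 genes was uneven. Ankrd37 rose in 5 of the 6 hypoxia comparisons, Ndrg1 and Kdm3a in 2 each and Mxi1 in 1, P4ha1 fell in 2, and Vegfa, P4ha2 and Higd1a passed the test in none. In Alb 2 members rose and none fell at CT4, where 9.16% of all tested genes were called (5.28% higher, 3.88% lower), and 2 rose at CT16, where 13.5% were called (6.72% higher, 6.76% lower). In HLKO 3 rose at CT4 (14.4% of all genes called, with 7.71% higher and 6.72% lower), while at CT16 none rose and 1 fell (9.74%, with 5.4% higher and 4.34% lower). In BLKO 2 rose at CT4 (4.63%, with 2.57% higher and 2.06% lower), and 1 rose and 1 fell at CT16 (9.4%, with 4.77% higher and 4.63% lower). Averaged over the 6 comparisons, 5 members rose, Ankrd37, Kdm3a, Ndrg1, Vegfa and Mxi1, and 1 fell, P4ha1, where 36% of all genes were called, 19.1% higher and 16.9% lower. For Ndrg1 this average joins rises at CT4 with values below 0 at CT16 in Alb and HLKO. In Alb at CT4, 5 of 12 endothelial and 7 of 10 Kupffer and macrophage markers rose as well, and in HLKO at CT4 0 of each were called. Their part in the member changes was not tested. The 1 call of 8 in HLKO at CT16 is near the share of all genes. The comparisons within a genotype and time use separate libraries, while those between genotypes and times reuse them. The share of all genes without overlap between 21% and 6% oxygen was 24.2% and 29.9% in Alb at CT4 and CT16, 34% and 25.1% in HLKO, and 22.9% and 27.5% in BLKO. No member was called in any difference of hypoxia effects between genotypes (Kdm3a in HLKO minus Alb at CT16 passed without HLKO CT16 6% B, -2.28, adjusted p = 0.0212), where 1.58% and 0.875% of all genes were called for HLKO minus Alb at CT4 and CT16, 0.19% and 0.116% for BLKO minus Alb, and 0.0316% and 0.148% for the averages over both times.

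**Figure D2:**
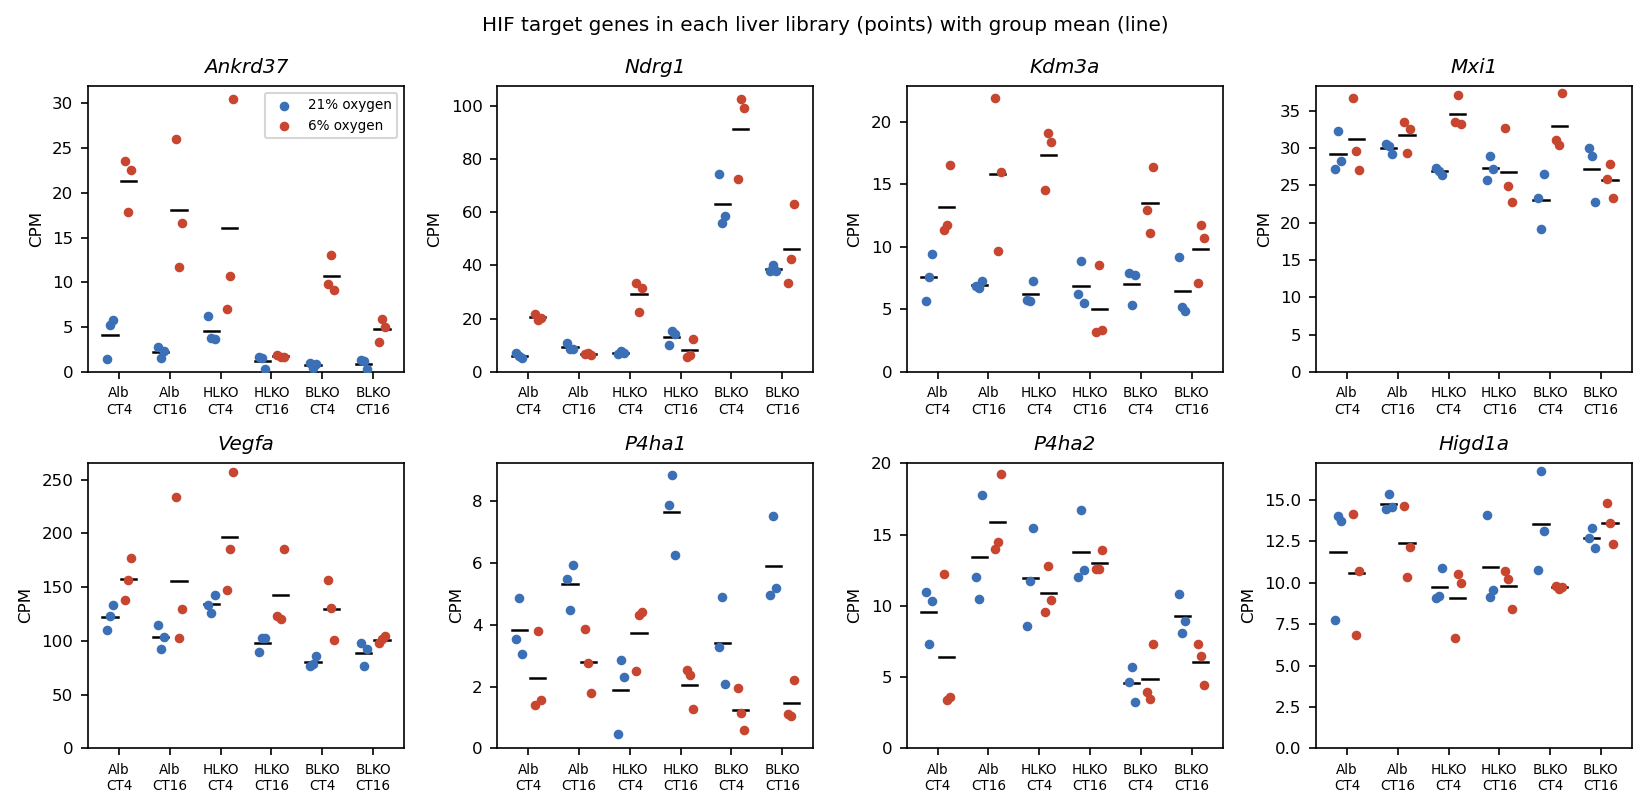
Level of each gene in CPM (y axis, linear from 0) in each of the 36 libraries; points are libraries at 21% (blue) and 6% oxygen (red), lines are means of the 3 libraries, and the x axis gives genotype and start of exposure. Ankrd37 at 6% oxygen lies above 21% in every setting, by little in HLKO CT16, where all 6 libraries lie under 2 CPM. By group mean, Ndrg1 is highest in the 4 BLKO groups.

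Ankrd37 (chromosome 8, 45996902 to 46005707, minus strand, GRCm38) rose with hypoxia in 5 of the 6 settings. In Alb at CT4 its level was 1.41, 5.18 and 5.79 CPM in the libraries at 21% oxygen and 23.6, 17.9 and 22.6 CPM at 6% oxygen. In Alb at CT16 it was 2.75, 1.5 and 2.28 CPM at 21% and 26, 11.7 and 16.6 CPM at 6%. All hypoxic control livers lay above all normoxic ones. The rise was 5.03-fold at CT4 (log2 2.33 ± 0.41, adjusted p = 0.000238) and 8.29-fold at CT16 (3.05 ± 0.46, adjusted p = 1.49e-05), and the difference between the times did not pass the test (CT16 minus CT4 0.72 ± 0.66, adjusted p = 0.822). In BLKO it rose at both times. The levels at CT4 were 0.934, 0.409 and 0.895 CPM at 21% and 9.83, 13.1 and 9.13 CPM at 6% oxygen (3.75 ± 0.65, adjusted p = 0.000285). At CT16 they were 1.29, 1.16 and 0.289 and 3.32, 5.87 and 5.05 CPM (2.25 ± 0.60, adjusted p = 0.0131). The BLKO normoxic libraries hold 1 to 7 counts each, and the CT16 call was lost without BLKO CT16 21% C (adjusted p = 0.067) or BLKO CT16 6% B (0.0693).

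In HLKO the rise of Ankrd37 passed the test at CT4 and not at CT16. At CT4 the levels were 6.23, 3.8 and 3.63 CPM at 21% and 7.07, 10.7 and 30.4 CPM at 6% oxygen. The rise passed the test (1.75 ± 0.43, adjusted p = 0.00515) but leaned on the third hypoxic library, without which it was 1.004 (adjusted p = 0.0817). At CT16 the levels were 1.66, 1.52 and 0.367 CPM and 1.89, 1.71 and 1.68 CPM, or 1 to 5 counts a library (0.54 ± 0.84, adjusted p = 0.75). Hypoxic HLKO livers at CT16 held 10.4-fold less Ankrd37 than hypoxic Alb livers at that time (-3.38 ± 0.52, adjusted p = 0.000133) and 8.4-fold less than hypoxic HLKO livers at CT4 (-3.07 ± 0.54, adjusted p = 0.000315; -2.32 without HLKO CT4 6% C). At CT4 the hypoxic HLKO and Alb livers overlapped. The difference of the hypoxia effects themselves did not pass the test, neither between HLKO and Alb at CT16 (-2.51 ± 1.03, adjusted p = 0.366) nor between the times within HLKO (-1.21 ± 0.99, adjusted p = 0.483).

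Ankrd37 was lower in BLKO than in Alb in 2 of the 4 comparisons. Hypoxic BLKO livers were 3.88-fold under hypoxic Alb livers at CT16 (-1.96 ± 0.39, adjusted p = 0.000669), and normoxic ones 5.37-fold under Alb at CT4 (-2.42 ± 0.75, adjusted p = 0.0402). The second call was lost on leaving out Alb CT4 21% B or C or any 1 of the BLKO libraries (adjusted p from 0.0926 to 0.16). Ordered by mean, Ankrd37 was highest in Alb CT4 6% at 21.3 ± 3.05 CPM, followed by Alb CT16 6%, HLKO CT4 6% and BLKO CT4 6%, neighbours that overlap. BLKO CT16 6% at 4.75 ± 1.3 CPM lay clear of these and overlapped HLKO CT4 21%. The lowest was BLKO CT4 21% at 0.746 ± 0.293 CPM, which overlapped BLKO CT16 21% and HLKO CT16 21%. The Ankrd37 gene body overlaps Ufsp2 and Lrp2bp on the opposite strand, and the strand used in counting is not given in the sources used here. Ufsp2 passed the test in none of the 6 hypoxia comparisons, with means between 31.9 ± 1.61 and 48.2 ± 5.36 CPM, and Lrp2bp had means between 0.203 and 1.15 CPM. Ndrg1, Mxi1 and Higd1a also overlap genes annotated on the opposite strand, from which their counts cannot be told apart either.

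Kdm3a (chromosome 6, 71588972 to 71632990, minus strand) rose with hypoxia in control livers at CT16 and in HLKO livers at CT4. The libraries of Alb CT16 gave 6.87, 6.74 and 7.29 CPM at 21% and 21.9, 9.65 and 16 CPM at 6% oxygen, with no overlap (1.21 ± 0.29, adjusted p = 0.00481). The highest of these was Alb CT16 6% A, 1 of the libraries that stood apart, and without it the rise was 0.88 (adjusted p = 0.0646). At CT4 the levels were 5.65, 7.61 and 9.45 CPM and 11.3, 11.8 and 16.6 CPM, again without overlap, and the difference did not pass the test (0.83 ± 0.30, adjusted p = 0.0833). Averaged over both times the rise in Alb was 1.02 ± 0.21 (adjusted p = 0.000571), and the effects at the 2 times differed by 0.39 ± 0.43 (adjusted p = 0.864).

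In HLKO livers Kdm3a responded differently at the 2 times. At CT4 its level was 5.75, 5.7 and 7.26 CPM at 21% oxygen and 14.6, 19.2 and 18.4 CPM at 6% oxygen, a 2.75-fold rise (1.46 ± 0.31, adjusted p = 0.00111). At CT16 it was 6.22, 8.84 and 5.51 CPM and 3.15, 8.53 and 3.37 CPM, and the groups overlapped (-0.37 ± 0.38, adjusted p = 0.605). The hypoxia effect was lower at CT16 than at CT4, by -1.82 ± 0.49 on the log2 scale (adjusted p = 0.0162), in a comparison where 8.64% of all genes and 2 other members, Ndrg1 and P4ha1, were called. This call was lost without HLKO CT16 21% B (adjusted p = 0.0814), HLKO CT16 6% A (0.0505) or HLKO CT16 6% C (0.0587), and the effect was -2.53 without HLKO CT16 6% B. The same time difference set against that of Alb, a comparison added after values were seen, was -2.21 ± 0.65 and missed the threshold (adjusted p = 0.0601, and 0.0346 with DESeq2; it passed without Alb CT4 21% A, Alb CT4 6% C, Alb CT16 6% B, HLKO CT16 21% C or HLKO CT16 6% B, 0.0085 to 0.0488). At CT16 6% oxygen, HLKO livers had 3.01-fold less Kdm3a than hypoxic Alb livers (-1.59 ± 0.33, adjusted p = 0.00268, and 0.0965 in a fit on these groups alone), and the value was -2.28 without HLKO CT16 6% B and -1.25 without Alb CT16 6% A. Kdm3a and Ankrd37 were the 2 members called in that comparison, where 9.88% of all genes were called. In the other 3 comparisons of HLKO with Alb no member was called, against 9.71% of all genes at CT4 21%, 3.56% at CT16 21% and 3.5% at CT4 6%. Among hypoxic HLKO livers, Kdm3a was lower at CT16 than at CT4 (-1.68 ± 0.33, adjusted p = 0.000933; -2.37 without HLKO CT16 6% B).

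In BLKO livers Kdm3a was 7 ± 1.47 CPM at 21% and 13.5 ± 2.68 CPM at 6% oxygen at CT4 (0.95 ± 0.32, adjusted p = 0.0846), and 6.44 ± 2.4 and 9.85 ± 2.44 CPM at CT16 (0.55 ± 0.30, adjusted p = 0.282). The first pair of groups did not overlap and the second did. Of the 9 tested histone demethylases in the list around Kdm3a, 2 rose in Alb at CT4 (9.16% of all genes called), 1 in Alb at CT16 (13.5%) and 1 in HLKO at CT4 (14.4%), and none was called in the remaining 3 hypoxia comparisons. They were Kdm4a, a demethylase of H3 lysine trimethyl marks (1.44 ± 0.30 at CT4 and 1.30 ± 0.29 at CT16 in Alb, adjusted p = 0.00133 and 0.00182), its paralog Kdm4b (1.01 ± 0.22 in Alb at CT4, adjusted p = 0.0025) and the Kdm3a paralog Jmjd1c (2.13 ± 0.47 in HLKO at CT4, adjusted p = 0.00176). The median change of the list lay between -0.21 and 0.14 in the 6 comparisons, and that of all tested genes between -0.02 and 0.03.

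Mxi1 (chromosome 19, 53310518 to 53375810, plus strand) varied little. Its 36 libraries lay between 19.2 and 37.4 CPM. The clearest change was in BLKO at CT4, from 23.4, 19.2 and 26.5 CPM to 31.1, 30.4 and 37.4 CPM (0.51 ± 0.15, adjusted p = 0.0379). This call was lost with DESeq2 (adjusted p = 0.0847), in a fit on these groups alone (0.124), and without BLKO CT4 21% A or B or BLKO CT4 6% A or C (0.0644 to 0.232). In HLKO at CT4 the groups also did not overlap (27.3, 26.9 and 26.4 against 33.5, 37.1 and 33.2 CPM, 0.37 ± 0.14, adjusted p = 0.0757), and in the other 4 comparisons the effect lay between -0.08 and 0.09. The rise averaged over the 6 comparisons was 0.15 ± 0.06 (adjusted p = 0.0426) and missed the threshold with DESeq2 (0.11) and in 22 of 36 runs that left out 1 library (0.0501 to 0.0961), without both Alb libraries that stood apart (0.102), with RLE scaling (0.0561) and without the filter (0.0594). Of 8 tested genes of the MYC, MAX and MXD network, the MAX partner Mnt rose in Alb at CT4 and CT16 (0.91 ± 0.25 and 0.75 ± 0.24, adjusted p = 0.0184 and 0.0369). The growth regulator Myc rose in HLKO at CT16 (2.03 ± 0.59, adjusted p = 0.0259). Leaving out 1 library ended the Mnt calls at CT4 (without 21% B or 6% B, adjusted p = 0.183 and 0.0876) and at CT16 (any library but 6% B, 0.0649 to 0.255). It ended the Myc call as well (any HLKO CT16 21% library or 6% C, 0.0663 to 0.226). Mlxipl, the glucose-sensing factor ChREBP, fell in 3 of the 6 comparisons (that in Alb at CT4 lost without any 1 library but 21% A), with its largest drop in HLKO at CT4 (-0.97 ± 0.14, adjusted p = 3.73e-06).

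**Figure D3:**
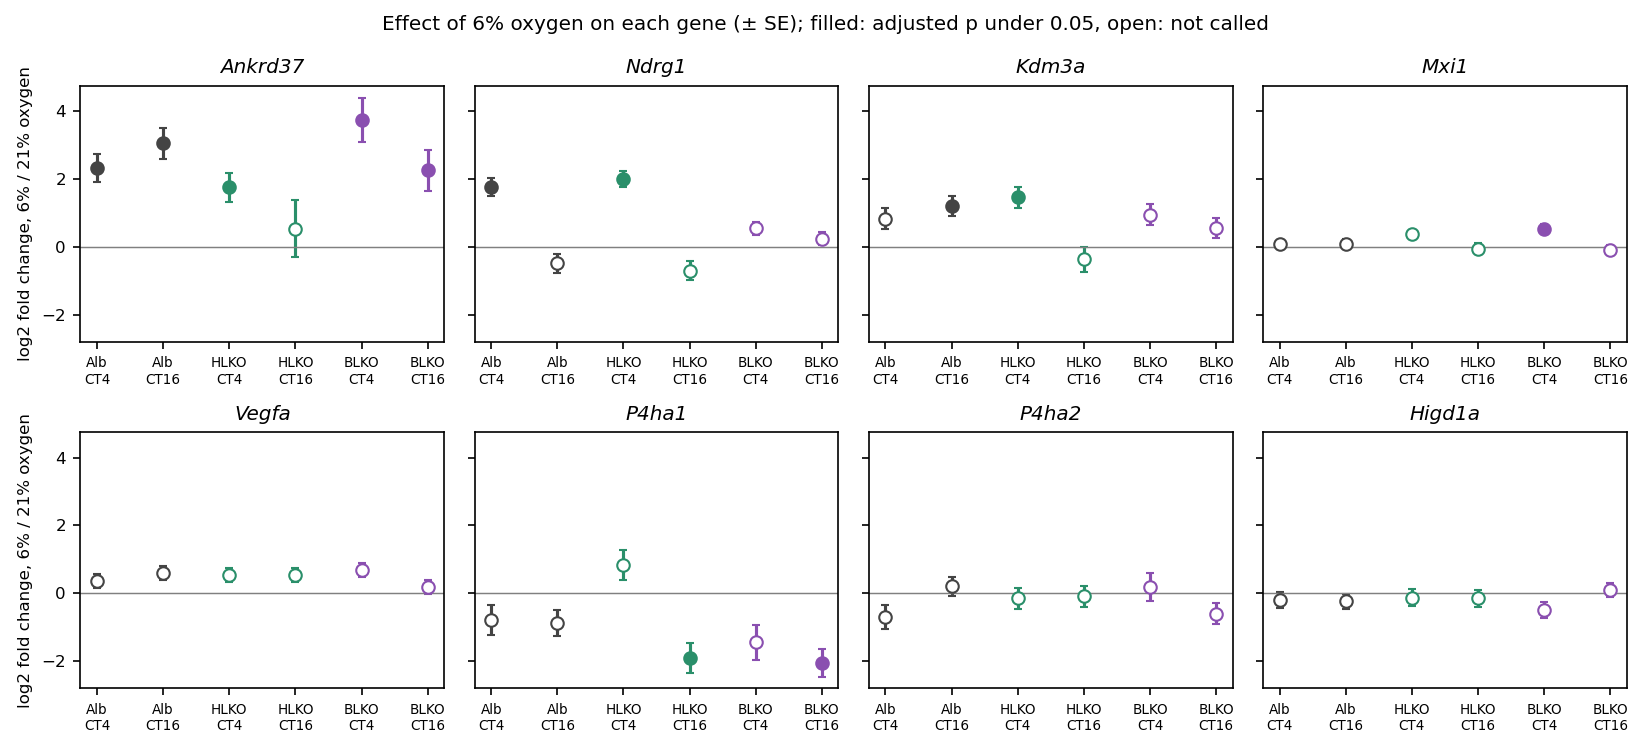
Effect of 6% over 21% oxygen on each gene, as log2 fold change ± SE (y axis) in the 6 genotype and time settings (x axis), with 3 libraries a group; filled points passed an adjusted p of 0.05 and open points did not. Ndrg1 rose at CT4 in Alb and HLKO (1.77 and 2.00) and lay below 0 at CT16 (-0.49 and -0.70), and P4ha1 lay below 0 except in HLKO CT4.

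Ndrg1 (chromosome 15, 66929318 to 66969640, minus strand) rose with hypoxia at CT4 in Alb and HLKO, passed the test at CT16 in neither, and was higher in BLKO than in Alb in all 4 comparisons. In Alb at CT4 it was at 7.06, 5.79 and 5.18 CPM at 21% and 21.7, 19.4 and 20.4 CPM at 6% oxygen, a 3.41-fold rise (1.77 ± 0.26, adjusted p = 1.63e-05). In Alb at CT16 it was at 11, 8.61 and 8.43 CPM and 6.7, 6.89 and 6.23 CPM (-0.49 ± 0.27, adjusted p = 0.253). Hypoxic livers thus lay above normoxic ones at CT4 and below them at CT16, without overlap at either time. The effect was lower at CT16, by -2.26 ± 0.38 (adjusted p = 0.00537), and Ndrg1 was the 1 member called in a comparison where 0.232% of all genes were called, 22 of 9483.

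HLKO livers gave the same kind of contrast. Their Ndrg1 levels at CT4 were 6.7, 7.92 and 6.93 CPM at 21% and 33.5, 22.7 and 31.6 CPM at 6% oxygen (2.00 ± 0.24, adjusted p = 4.35e-07). At CT16 they were 9.96, 15.5 and 14.3 CPM and 5.67, 6.48 and 12.2 CPM, overlapping through 1 hypoxic library (-0.70 ± 0.28, adjusted p = 0.104, and -1.12 with 0.0243 without HLKO CT16 6% C). The effect was lower at CT16, by -2.70 ± 0.37 (adjusted p = 1.38e-05). The difference of the hypoxia effect between HLKO and Alb did not pass the test at CT4 (0.23 ± 0.37, adjusted p = 0.79) or at CT16 (-0.21 ± 0.39, adjusted p = 0.916). In HLKO the red cell marker Alas2, the 1 gene of 5 on that list in the table, ran from 48.9 to 97.3 CPM at CT4 and from 70.4 to 316 CPM at CT16, and its part in the time differences of HLKO was not tested.

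In BLKO livers the normoxic level of Ndrg1 was 74.3, 56 and 58.8 CPM at CT4, 10.5-fold above Alb (3.39 ± 0.24, adjusted p = 7.98e-12). Ndrg1 and Ankrd37 were the members called in that comparison, where 7.44% of all genes were called. At CT16 the BLKO level was 37.9, 40.2 and 38.1 CPM, 4.16-fold above Alb (2.06 ± 0.22, adjusted p = 1.55e-07), and Ndrg1 was the 1 member called there, against 5.38% of all genes. At 6% oxygen the levels were 72.4, 103 and 99.2 CPM at CT4 and 33.2, 42.5 and 63.2 CPM at CT16. BLKO thus exceeded Alb at 6% oxygen too, by 2.16 ± 0.20 at CT4 (adjusted p = 6.15e-09; 1 member and 5% of all genes called) and 2.79 ± 0.23 at CT16 (adjusted p = 2.7e-10; 3 members and 9.45% of all genes called). Every BLKO library lay above every Alb library of the same time and oxygen level. At CT4 6%, 6 of 10 Kupffer and macrophage markers were lower in BLKO than in Alb, and 5 of 10 were lower in HLKO than in Alb. The marker sums there were 356 to 668 CPM in Alb, 201 to 248 CPM in BLKO and 244 to 298 CPM in HLKO. The part of these markers in the Ndrg1 difference and in the HLKO comparison at CT4 6% was not tested. The hypoxia effect on Ndrg1 within BLKO was 0.54 ± 0.18 at CT4 (adjusted p = 0.0896) and 0.24 ± 0.19 at CT16 (adjusted p = 0.489), with overlap at both times. The time difference of the hypoxia effect was -0.30 ± 0.26 in BLKO (adjusted p = 0.752). Set against that of Alb, in a comparison added after values were seen, it differed by 1.96 ± 0.46, which did not pass in edgeR (adjusted p = 0.122) and did in DESeq2 (0.0408). These comparisons share the Alb libraries. The hypoxia effect averaged over both times was 0.64 ± 0.19 in Alb (adjusted p = 0.014), 0.65 ± 0.19 in HLKO (adjusted p = 0.0166, and 0.165 without HLKO CT16 6% C) and 0.39 ± 0.13 in BLKO (adjusted p = 0.0444). The BLKO average missed the threshold in 9 of 12 runs that left out 1 library, all but those without A of BLKO CT4 21%, CT4 6% or CT16 6% (0.0513 to 0.239), and with the replicate block (0.0525). Over both times and all genotypes the effect was 0.56 ± 0.10 (adjusted p = 3.23e-05). In Alb and HLKO these averages join a rise at CT4 with a value below 0 at CT16, so they describe neither time.

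Ordered by mean, the 4 BLKO groups stood highest for Ndrg1, from 91.4 ± 16.6 CPM in BLKO CT4 6% to 38.8 ± 1.29 CPM in BLKO CT16 21%, each overlapping its neighbour. HLKO CT4 6% at 29.3 ± 5.79 CPM and Alb CT4 6% at 20.5 ± 1.15 CPM followed, clear of each other and of the groups next to them by mean. The highest library of HLKO CT4 6% (33.5 CPM) did lie above the lowest of BLKO CT16 6% (33.2 CPM). The other 6 groups, between 13.3 ± 2.94 and 6.01 ± 0.959 CPM, overlapped neighbour by neighbour. At 6% oxygen Ndrg1 was lower at CT16 than at CT4 in Alb (-1.62 ± 0.25, adjusted p = 0.000111), HLKO (-1.81 ± 0.25, adjusted p = 1.56e-05) and BLKO (-0.995 ± 0.18, adjusted p = 0.00136). At 21% oxygen the difference was 0.63 ± 0.28 in Alb (adjusted p = 0.354; no member and 1.27% of all genes called) and -0.70 ± 0.19 in BLKO (adjusted p = 0.0425; 1 member and 2.19% of all genes called), and the BLKO call was lost on leaving out any 1 of its 6 libraries (0.0679 to 0.219). In the comparisons at 6% oxygen 4.41%, 9.81% and 3.35% of all genes and 2, 3 and 1 of the 8 members were called. Of its paralogs, Ndrg2 and Ndrg3 were tested, and Ndrg3 fell in all 6 hypoxia comparisons. Its largest drops were in Alb at CT16, from 20.5 ± 3.42 to 7.14 ± 0.944 CPM (-1.54 ± 0.23, adjusted p = 1.3e-05), and in HLKO at CT4, from 20.8 ± 2.28 to 7.35 ± 1.75 CPM (-1.54 ± 0.23, adjusted p = 1.13e-05), and its smallest in Alb at CT4 (-0.73 ± 0.22, adjusted p = 0.0363). The Alb CT4 call was lost without 21% B or C or 6% A or B (adjusted p from 0.0651 to 0.202), and that in BLKO at CT4 without 21% A or 6% A or B (0.0585 to 0.0755).

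Vegfa (chromosome 17, 46016993 to 46032369, minus strand), counted at 165 to 1150 reads a library, was higher at 6% oxygen in each of the 6 settings by group mean, by modest amounts that did not pass the test in any single one. In Alb at CT4 the libraries gave 109.8, 123 and 133 CPM at 21% and 138, 157 and 177 CPM at 6% oxygen, without overlap (0.37 ± 0.21, adjusted p = 0.3). In Alb at CT16 they gave 114, 92.1 and 104 CPM and 234, 103 and 129.6 CPM, with the highest value in Alb CT16 6% A (0.59 ± 0.21, adjusted p = 0.0535). HLKO livers gave 133, 126 and 143 and 147, 185 and 257 CPM at CT4 (0.54 ± 0.21, adjusted p = 0.0737). At CT16 the HLKO values were 89.6, 103 and 103 and 123, 120.4 and 185 CPM (0.54 ± 0.21, adjusted p = 0.103). Neither HLKO pair overlapped. BLKO livers gave 77.1, 78.5 and 85.6 and 157, 131 and 101 CPM at CT4 (0.68 ± 0.21, adjusted p = 0.0602, and 0.0467 with DESeq2). The smallest difference was in BLKO at CT16, 89 ± 10.8 against 101 ± 3.29 CPM (0.18 ± 0.21, adjusted p = 0.677). Of the 6 comparisons edgeR called 0, with 4 at an unadjusted p under 0.05. The Alb CT16 value was 0.17 without Alb CT16 6% A (adjusted p = 0.614) and passed without B (0.81, 0.0104) or C (0.71, 0.0438) of that group. HLKO at CT4 passed without HLKO CT4 6% A (0.72, 0.0345), and BLKO at CT4 without BLKO CT4 6% C (0.83, 0.039).

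Averaged over the 6 comparisons Vegfa rose 1.4-fold (0.49 ± 0.09, adjusted p = 3.05e-05), a call kept in every alternative run. By genotype, the mean of both times rose in Alb (0.48 ± 0.15, adjusted p = 0.0168) and HLKO (0.54 ± 0.15, adjusted p = 0.0109) and missed the threshold in BLKO (0.43 ± 0.15, adjusted p = 0.0532, and 0.0312 without BLKO CT4 6% C). The Alb value was 0.26 without Alb CT16 6% A (adjusted p = 0.139), and the HLKO call was lost without HLKO CT4 6% C (0.0514) or HLKO CT16 6% C (0.0565). Members called in these averages numbered 5 in Alb, 4 higher and 1 lower, against 22.5% of all genes (12% higher, 10.5% lower), 2 in HLKO, both higher (14.8%, with 7.95% higher and 6.9% lower) and 4 in BLKO, 3 higher and 1 lower (12.3%, with 6.33% higher and 5.94% lower). The Kdm3a average in BLKO (0.75 ± 0.22, adjusted p = 0.0197) was lost without BLKO CT16 21% B or C, CT16 6% B, CT4 21% B or CT4 6% C (0.0531 to 0.0683). No difference of the Vegfa hypoxia effect between genotypes passed the test. Normoxic BLKO livers at CT4 had a Vegfa difference from Alb of -0.60 ± 0.21 (adjusted p = 0.0839), which passed without both Alb libraries that stood apart (-0.68, adjusted p = 0.0259). Hypoxic ones at CT16 differed by -0.63 ± 0.21 (adjusted p = 0.051), which passed with DESeq2 (0.0391), with RLE scaling (0.0473) and without Alb CT16 6% B (0.00693) or C (0.0386). By mean level Vegfa ran from 197 ± 55.8 CPM in HLKO CT4 6% to 80.4 ± 4.57 CPM in BLKO CT4 21%, and neighbours in this order overlapped.

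Among 8 tested VEGF ligands and receptors, the receptor Flt1 rose in Alb at CT4, from 7.08 ± 1.11 to 17.9 ± 0.729 CPM (1.33 ± 0.26, adjusted p = 0.000876), in Alb at CT16 (0.84 ± 0.24, adjusted p = 0.0175) and in HLKO at CT4 (1.18 ± 0.27, adjusted p = 0.00256). The main signalling receptor Kdr rose in Alb at CT4, from 12.5 ± 1.73 to 30.4 ± 7.78 CPM (1.31 ± 0.29, adjusted p = 0.00256). The ligand Vegfd fell in BLKO at CT16 (-1.68 ± 0.54, adjusted p = 0.0446). The Flt1 call in Alb at CT16 was lost without 21% B or C or 6% B (adjusted p from 0.0887 to 0.114), and the Vegfd call without any 1 of 5 of its 6 libraries (0.0609 to 0.403). Both receptors are made by endothelial cells. In Alb at CT4 the 12 endothelial markers, which include Kdr, summed to 197 to 246 CPM at 21% and 313 to 361 CPM at 6% oxygen, with 5 of 12 called higher. The 11 Kupffer and macrophage markers summed to 186 to 328 CPM and 356 to 668 CPM, with 7 of 10 tested called higher. In Alb at CT16 the endothelial sums were 253 to 264 and 243 to 315 CPM, with 0 of 12 called, and in HLKO at CT4 they were 231 to 236 and 221 to 315 CPM, also with 0 of 12 called. The part of these cell types in the receptor changes was not tested.

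P4ha1 (chromosome 10, 59323296 to 59373304, plus strand) was lower at 6% oxygen in 5 of the 6 settings by group mean. It was counted at only 1 to 29 reads a library. In BLKO at CT16 the libraries gave 4.97, 7.53 and 5.2 CPM at 21% and 1.11, 1.05 and 2.21 CPM at 6% oxygen, a 4.13-fold fall (-2.05 ± 0.41, adjusted p = 0.00118). In HLKO at CT16 they gave 7.88, 8.84 and 6.25 CPM and 2.52, 2.39 and 1.26 CPM, a 3.73-fold fall (-1.90 ± 0.43, adjusted p = 0.00391). Neither pair overlapped. BLKO at CT4 gave 3.27, 4.9 and 2.09 and 1.97, 1.15 and 0.609 CPM (-1.45 ± 0.53, adjusted p = 0.119). Alb gave 3.82 ± 0.946 and 2.26 ± 1.34 CPM at CT4 (-0.79 ± 0.44, adjusted p = 0.293) and 5.3 ± 0.737 and 2.8 ± 1.04 CPM at CT16 (-0.88 ± 0.38, adjusted p = 0.125). The exception was HLKO at CT4, where 0.479, 2.85 and 2.31 CPM at 21% stood against 2.5, 4.32 and 4.4 CPM at 6% oxygen, with overlap (0.84 ± 0.44, adjusted p = 0.206).

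The hypoxia effect on P4ha1 in HLKO was lower at CT16 than at CT4, by -2.74 ± 0.62 (adjusted p = 0.00491). In the normoxic HLKO livers P4ha1 was 3.75-fold higher at CT16 than at CT4 (1.91 ± 0.41, adjusted p = 0.00201). P4ha1 and Ndrg1 (0.89 ± 0.27, adjusted p = 0.0288) were the 2 members called there, against 11.9% of all genes. The Ndrg1 call was lost without HLKO CT16 21% B or C or any 1 of the HLKO CT4 21% libraries (adjusted p from 0.0597 to 0.152). Against the time difference of Alb, in the comparison added later, P4ha1 differed by -2.65 ± 0.86 (adjusted p = 0.0903). Averaged over the 6 comparisons P4ha1 fell 2.05-fold (-1.04 ± 0.18, adjusted p = 3.13e-05). The averages over both times were -1.75 ± 0.33 in BLKO (adjusted p = 0.000398), -0.83 ± 0.29 in Alb (adjusted p = 0.0353) and -0.53 ± 0.32 in HLKO (adjusted p = 0.304). The Alb call was lost in 7 of the runs that left out 1 library (adjusted p from 0.0548 to 0.119), namely without Alb CT4 21% B, Alb CT4 6% A or C, Alb CT16 21% A or C, or Alb CT16 6% B or C.

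P4ha2 (chromosome 11, 54100095 to 54131665, plus strand) passed the test in none of the 6 hypoxia comparisons, with 0 at an unadjusted p under 0.05 in edgeR and 0 called by DESeq2. Its largest difference was in Alb at CT4, 10.9, 7.31 and 10.4 CPM at 21% against 12.3, 3.42 and 3.58 CPM at 6% oxygen (-0.71 ± 0.35, adjusted p = 0.222). The first hypoxic library lay above all 3 normoxic ones and the other two below them, and without it the difference was -1.43 (adjusted p = 0.0076). Without that library the averages in Alb (-0.61, adjusted p = 0.0345) and over the 6 comparisons (-0.31, 0.0348) and the excess of HLKO over Alb at CT4 6% (1.63, 0.00388) passed too. Between genotypes, hypoxic BLKO livers at CT16 were at 7.31, 6.49 and 4.42 CPM and hypoxic Alb livers at 14, 14.5 and 19.3 CPM, 2.55-fold apart (-1.35 ± 0.30, adjusted p = 0.00241). In Alb at 6% oxygen P4ha2 was higher at CT16 than at CT4 (1.44 ± 0.32, adjusted p = 0.0066). That call was lost without Alb CT4 6% B (0.0655) or C (0.1) and in a fit on these groups alone (0.15), and the value was 2.16 without A. By mean level P4ha2 was highest in Alb CT16 6% at 15.9 ± 2.91 CPM and lowest in BLKO CT4 21% at 4.56 ± 1.22 CPM, and neighbours in the order overlapped.

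Of 10 tested genes of collagens and their hydroxylation, which leave out P4ha1 and P4ha2, 1 rose in Alb at CT4 (9.16% of all genes called), 1 in Alb at CT16 (13.5%) and 2 in HLKO at CT16 (9.74%). Of the 10, 1 fell in each of HLKO CT4 (14.4%) and BLKO CT4 (4.63%). Those that fell, named after their values were seen, were P4hb, the partner subunit of the prolyl hydroxylases (-0.34 in HLKO), and the lysyl hydroxylase Plod3 (-0.54 in BLKO). The largest changes were those of Loxl1, which cross-links elastin and collagen (2.08 ± 0.67 in HLKO at CT16, adjusted p = 0.045), Crtap, a subunit of the collagen prolyl 3-hydroxylase complex (1.57 ± 0.45 in Alb at CT16, adjusted p = 0.0162), and Col4a1, a basement membrane collagen (1.02 ± 0.22 in Alb at CT4, adjusted p = 0.00234). Leaving out 1 library ended the calls of Loxl1 (5 of its 6 libraries, adjusted p from 0.089 to 0.16), Crtap (Alb CT16 21% B or C or 6% B, 0.0614 to 0.0746), P4hb (5 of 6, 0.0743 to 0.17) and Plod3 (6 of 6, 0.0599 to 0.174), and Col4a1 kept its call. The median of the list lay between -0.23 and 0.18.

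Higd1a (chromosome 9, 121848563 to 121858362, minus strand) was called in none of the 35 comparisons made, with a lowest adjusted p of 0.141, 1 at an unadjusted p under 0.05 and 0 called by DESeq2 among the comparisons followed. Without both Alb libraries that stood apart, its effect averaged over the 6 comparisons passed (-0.24, adjusted p = 0.0337). Its 36 libraries lay between 6.65 and 16.8 CPM. The largest hypoxia effect was in BLKO at CT4, 10.7, 16.8 and 13.1 CPM at 21% against 9.83, 9.61 and 9.74 CPM at 6% oxygen, a difference without overlap (-0.48 ± 0.24, adjusted p = 0.311). In the other 5 settings the effect lay between -0.23 and 0.10, with SE from 0.21 to 0.25. The 4 tested genes of the HIG1 family and cytochrome oxidase factors gave 0 calls in the 6 hypoxia comparisons.

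Further HIF targets outside glycolysis, a list of 45 genes of which 37 were in the table and 31 were tested, are given for comparison. In Alb 11 rose and 1 fell at CT4 (median change 0.44) and 10 rose at CT16 (0.33). In HLKO 17 rose and 1 fell at CT4 (0.97), while at CT16 5 rose and 3 fell (0.05). In BLKO 6 rose at CT4 (0.23), and 5 rose and 1 fell at CT16 (0.12). The shares of all genes called in these 6 comparisons are given with the members above. The leaders included Ddit4, an inhibitor of mTORC1, Igfbp1, a liver-secreted binding protein of insulin-like growth factors, and Hilpda, a lipid droplet protein. Igfbp1 rose in all 6 settings, from 94.2 ± 48.8 to 1959 ± 313 CPM in Alb at CT4 (4.38 ± 0.38, adjusted p = 9.66e-10). Ccng2, a cyclin that restrains the cell cycle, rose in HLKO at CT4 (1.86 ± 0.44, adjusted p = 0.00336) and fell in HLKO at CT16 (-2.01 ± 0.33, adjusted p = 0.000113). Ppp1r3c, a glycogen-targeting phosphatase subunit, rose at CT4 in Alb (2.01 ± 0.31, adjusted p = 3.76e-05) and HLKO, and fell at CT16 in HLKO and BLKO (BLKO -0.97 ± 0.26, adjusted p = 0.0144). Both falls of Ppp1r3c were lost without B or C of 21% oxygen or B of 6% oxygen, and also without A (HLKO) or C (BLKO) of 6% oxygen (adjusted p from 0.0583 to 0.0917). The rise of Ccng2 was 2.46 without HLKO CT4 21% B.

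**Figure D4:**
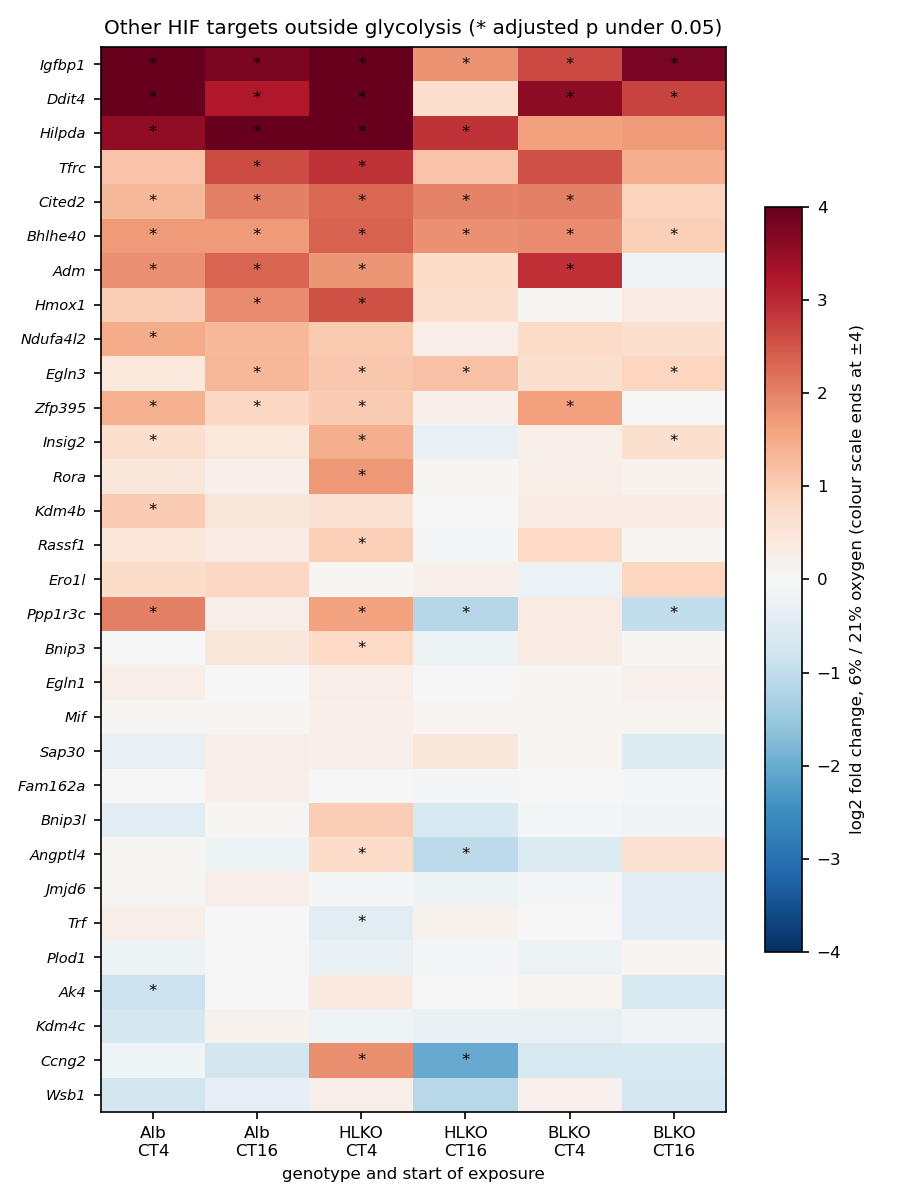
Log2 fold change of 6% over 21% oxygen (colour, scale ending at ±4) for the 31 tested HIF targets outside glycolysis other than the 8 genes, in the 6 genotype and time settings; stars mark an adjusted p under 0.05. Most stars are in HLKO CT4, with 17 genes higher and 1 lower, and fewest in the BLKO columns, with 6 in each.

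Egln3 and Kdm4b belong to this list as well as to those around the sensors and Kdm3a. For 7 of the 31 genes the hypoxia effect in HLKO was lower at CT16 than at CT4 and for 0 higher, with a median difference of -0.80, where the same difference in Alb gave 0 calls (median 0.10) and in BLKO 2 lower. Among the 8 members the same comparison gave 3 lower in HLKO (4.83% of all genes lower), 1 lower in Alb (0.179%) and 0 in BLKO (0.337%; 0.833% in either direction). No member was called in the 2 comparisons of these differences with those of Alb, against 2.44% of all genes for HLKO and 0.0211% for BLKO. The 7 included Ccng2 (-3.88 ± 0.55, adjusted p = 2.13e-05), Igfbp1 (-3.52 ± 0.48, adjusted p = 1.38e-05) and Ddit4 (-3.48 ± 0.63, adjusted p = 0.000496). The Ddit4 difference was -2.51 without HLKO CT16 21% C, and that of Ccng2 -4.47 without HLKO CT4 21% B. At 21% oxygen, 9 of the 31 genes were higher and 0 lower in HLKO at CT16 than at CT4 (11.9% of all genes called, 623 higher and 502 lower). Among them were Ddit4 (3.62 ± 0.50, adjusted p = 6.75e-06), Igfbp1 (3.61 ± 0.37, 2.69e-08) and Ccng2 (3.52 ± 0.39, 9.99e-08). At 6% oxygen 1 was higher and 6 lower (9.81% of all genes called), and these 3 were not called. Against the time difference of Alb, 3 of the 31 genes were lower in HLKO and 0 higher, Ccng2 and Igfbp1 among them. For BLKO 0 were called. At CT16 6% oxygen, 6 of the 31 genes were lower and 0 higher in HLKO than in Alb (9.88% of all genes called), and 9 were lower and 1 higher in BLKO than in Alb (9.45%), comparisons that share the Alb libraries. In the BLKO comparison Hilpda (-3.18 ± 0.50, adjusted p = 3e-05) had the largest change of these, at 18.1 ± 4.81 against 166 ± 142 CPM, and was -2.39 without Alb CT16 6% A (adjusted p = 0.000997). Of the members, Ankrd37 and P4ha2 were lower there and Ndrg1 higher. Of 8 tested HIF subunits and oxygen sensors, the prolyl hydroxylase Egln3 rose in Alb and HLKO at CT16 (1.32 ± 0.25 and 1.17 ± 0.32), in HLKO at CT4 (1.07 ± 0.26) and in BLKO at CT16 (0.86 ± 0.24), with adjusted p of 0.000464, 0.016, 0.00415 and 0.0184. The Egln3 calls were lost without HLKO CT16 21% B or C or 6% B (adjusted p from 0.0638 to 0.139, and 1.75 on the log2 scale without 21% A) and without BLKO CT16 21% A or C or 6% C (0.0508 to 0.105). Epas1, the second HIF alpha subunit of liver, rose in Alb at CT16 (0.59 ± 0.13, adjusted p = 0.00158). Egln2, another prolyl hydroxylase, rose in Alb at both times and in HLKO at CT4, by at most 0.61 ± 0.14 (adjusted p = 0.00283), and its Alb CT4 call was lost without any 1 library but 6% A (adjusted p from 0.0618 to 0.157).

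The members differed from one another in how their group means moved. Over the 12 groups, whose points share libraries between genes, Pearson's r of log2 CPM was 0.86 for Ankrd37 with Kdm3a, 0.81 for Ankrd37 with Vegfa and -0.80 for Ndrg1 with P4ha2. The genes most like each member, among 7387 other genes with a mean of at least 5 CPM over all libraries, were Itpripl1 (0.91) and Car14 (0.90) for Ankrd37, Svbp (0.96) and Uba2 (0.93) for Kdm3a, and Dsp (0.89) and Ripk1 (0.88) for Mxi1. For Ndrg1 they were Mad2l2 and Elp4 (both 0.95), and for Vegfa Klb (0.95) and Pvr (0.94). For P4ha1, compared with 7388 genes, they were Peli2 (0.91) and Isg20 (0.90), for P4ha2 Usp10 (0.94) and Fam126a (0.92), and for Higd1a Chp1 (0.92) and Hspa8 (0.91). With 12 points and that many genes searched, these values describe likeness in these libraries.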

How the data were processed

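Liver RNA of 36 libraries in 12 groups was read from 1 table of the whole series, which holds raw read counts per gene symbol and normalized values. For the deposited counts, the submitters' processing notes name the mouse build mm10 and the tools STAR (2.4.2a), HTSeq, cutadapt and DESeq2, with no role or order given. The strand of counting, the library type and molecular identifiers are not given in the sources used here. The normalized signal that the authors deposited is the raw count divided by 1 constant per library (largest relative range 9.7e-15), and it was read only for that check. Another 3 double-knockout samples were not analysed here.

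Groups follow the sample titles. Genes were filtered with edgeR's filterByExpr at a minimum count of 10, scaled by TMM and fitted with edgeR 4.0.16 (R 4.3.3) as 12 group means over all 36 libraries. The quasi-likelihood test was applied to 35 comparisons, with Benjamini-Hochberg adjustment over 9483 genes within each and a threshold of 0.05. The SE is the size of the log2 fold change divided by the square root of its F statistic. The procedure was tested on simulated counts. Alternatives were DESeq2 1.42.0, RLE scaling, no filter, a fit on the compared groups alone, a replicate block and leaving out libraries, the last also, as a step added after values were seen, for the other listed genes. In the pairing check, 0 of 20 comparisons had all 3 same-letter libraries deviating together at r over 0.1. Library totals, which limit precision for genes of few reads, ran from 1717589 to 5196957. Figures were drawn with matplotlib 3.10.9.

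The members, gene lists and tests were chosen with earlier results of these data known, and the 2 comparisons of time differences between genotypes were added after values were seen. All 8 members are named. Of the other HIF targets, up to 6 called genes with the largest change in each hypoxia comparison could be named, of each partner list up to 3 called genes, and for likeness the 2 genes with the highest correlation per member. Of the other HIF targets, 1 gene is not reported here and was left out of the list and its counts. The lists of stellate, cholangiocyte and lymphocyte or neutrophil markers gave at most 1 call in each hypoxia comparison.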

Additional observations from a re-analysis of the deposited data

Results flagged for a closer look

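For 3 members the effect of 6% over 21% oxygen differed between CT16 and CT4 by edgeR's quasi-likelihood test of the difference itself. Of all genes, 0.232% were called for this difference in Alb and 8.64% in HLKO. When the HLKO difference was set against that of Alb, no member was called by edgeR, against 2.44% of all genes. Ndrg1 gave a CT16 minus CT4 difference of -2.26 ± 0.38 (log2 ± SE, adjusted p = 0.00537) in Alb and -2.70 ± 0.37 (adjusted p = 1.38e-05) in HLKO, and both calls were kept in every run that left out 1 library. P4ha1 gave -2.74 ± 0.62 (adjusted p = 0.00491) in HLKO, where its counts were 1 to 29 a library over the series. DESeq2 gave P4ha1 no adjusted p for this difference. Kdm3a gave -1.82 ± 0.49 (adjusted p = 0.0162) in HLKO, a call that was lost without HLKO CT16 21% B, HLKO CT16 6% A or HLKO CT16 6% C (adjusted p = 0.0814, 0.0505 and 0.0587).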

How the results depend on the processing

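Of 138 effects followed, 51 passed the threshold, 34 of these in every alternative run and 35 in every run that left out 1 library, and none of the 51 changed sign. Calls lost and gained numbered 4 and 6 with DESeq2 (133 values), 1 and 1 with RLE scaling, 4 and 0 without the filter, 5 and 7 in fits on the compared groups alone (125 values), and 3 and 2 without both Alb libraries that stood apart (64 values). The replicate block changed 2 calls: the Ndrg1 average in BLKO became 0.39 (adjusted p = 0.0525) and the Vegfa average in BLKO 0.44 (0.0467). The labels do not say that the replicate letters pair samples, and the check, with few libraries a group, cannot show that they pair none. Counts of members called that moved by over 1.5 times were these. In fits on the compared groups alone, they became 2 from 1 in BLKO against Alb at CT4 6%, 1 from 2 between times in Alb at 6%, 2 from 1 between times in BLKO at 6%, 4 from 2 between times in HLKO at 21% and 1 from 2 in HLKO against Alb at CT16 6%. With DESeq2 they became 0 from 1 between times in BLKO at 21%, and 1 from 0 in each comparison of time differences between genotypes. Smaller DESeq2 changes were 3 from 2 between times in HLKO at 21% (Ankrd37), 4 from 3 in BLKO against Alb at CT16 6% (Vegfa), 3 from 2 in the HLKO average (Ankrd37), 3 from 4 in the BLKO average (Ndrg1) and 5 from 6 in the average of all (Mxi1), and for the time difference in HLKO DESeq2 gave P4ha1 no adjusted p. Without the filter they became 0 from 1 between times in BLKO at 21% and 1 from 2 for hypoxia in BLKO at CT4, and without both libraries 1 from 2 for hypoxia in Alb at CT16.

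With each library left out in turn, members called ran from 3 to 5 in BLKO against Alb at CT16 6%, 1 to 2 at CT4 21%, 0 to 1 in HLKO against Alb at CT4 6%, 1 to 2 between times in Alb at 6% and in HLKO at 21%, and 0 to 0 between times in BLKO at 21%. For hypoxia they ran from 1 to 3 in Alb at CT16, 1 to 2 in BLKO at both times and in HLKO at CT16, 2 to 4 in the BLKO average, 0 to 3 in the HLKO average, and 0 to 1 in the HLKO minus Alb difference at CT16 and in its time difference. Uncalled hypoxia effects that changed sign were those of Higd1a in Alb CT4 (-0.42 to 0.0086), HLKO CT16 (-0.27 to 0.059) and HLKO CT4 (-0.29 to 0.077), Mxi1 in Alb CT4 (-0.055 to 0.17) and HLKO CT16 (-0.19 to 0.046), Ndrg1 in BLKO CT16 (-0.045 to 0.44), and P4ha2 in BLKO CT4 (-0.27 to 0.38), HLKO CT16 (-0.17 to 0.094) and HLKO CT4 (-0.33 to 0.071). Beyond the smaller number of samples, the cause of these shifts was not tested. Counts of 1 to 29 reads limit P4ha1, and counts of 1 to 7 the lowest Ankrd37 groups.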
